A study of Mus musculus with 16 samples.

Results

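The 10 genes described here encode secreted ligands of the TGF-beta superfamily: Tgfb1, Tgfb2, Tgfb3, Gdf15, Inhba, Inhbb, Bmp2, Bmp4, Bmp6 and Mstn. They were chosen by gene symbol from the 22098 genes that appear in at least 1 of 4 deposited DESeq tables, and all 10 were listed in every table. The tables come from 16 RNA-seq libraries of mouse heart tissue: 3 Vehicle SHAM, 4 Vehicle TAC, 4 NR SHAM and 5 NR TAC. SHAM hearts had a control operation and TAC, the field's abbreviation for transverse aortic constriction, narrows the aorta so that the left ventricle pumps against a higher pressure. Each operation was combined with vehicle or with NR, the usual abbreviation of nicotinamide riboside, a precursor of NAD+. All groups were heart tissue, extracted from 30 mg pieces per the labels' protocols. Genotype, strain, sex, age, dose and time after surgery, and whether each library came from its own animal, are not given in the sources used here, so p-values may measure technical spread only.

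Ligands of this superfamily are made as precursors, and the cleaved carboxy-terminal parts join into dimers that bring type I and type II receptor kinases together. TGF-betas and activins signal mainly through SMAD2 and SMAD3, and bone morphogenetic proteins (BMPs) through SMAD1, SMAD5 and SMAD9. In the pressure-loaded heart TGF-beta is best known for turning fibroblasts into matrix-producing myofibroblasts. Gdf15 is a divergent member that stressed cells of many tissues induce, and its known receptor, GFRAL, sits in the hindbrain.

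The stretches before the start sites are shown for the 3 ligands whose means were higher after TAC at an unadjusted p below 0.05 both with vehicle and with NR: Gdf15, Tgfb2 and Inhba. Each line gives the 250 bases before the RefSeq start site on GRCm38.p6 (for Gdf15, the upstream one of 2 start sites), 5′ to 3′ on the gene's strand. For Gdf15 these are chr8:70632457-70632706 on the minus strand, for Tgfb2 chr1:186705990-186706239 on the minus strand and for Inhba chr13:16011601-16011850 on the plus strand. Capitals mark exact matches on either strand to the motifs named after the sequences.
Gdf15: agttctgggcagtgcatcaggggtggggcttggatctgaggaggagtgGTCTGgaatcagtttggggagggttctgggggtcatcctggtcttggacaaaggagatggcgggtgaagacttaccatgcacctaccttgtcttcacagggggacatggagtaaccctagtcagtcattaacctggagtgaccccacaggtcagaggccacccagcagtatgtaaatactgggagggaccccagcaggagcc
Tgfb2: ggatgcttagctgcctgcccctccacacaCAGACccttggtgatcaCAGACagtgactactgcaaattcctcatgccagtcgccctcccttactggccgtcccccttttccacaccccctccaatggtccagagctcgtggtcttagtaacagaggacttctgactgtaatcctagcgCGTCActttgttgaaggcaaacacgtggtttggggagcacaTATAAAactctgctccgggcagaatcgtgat
Inhba: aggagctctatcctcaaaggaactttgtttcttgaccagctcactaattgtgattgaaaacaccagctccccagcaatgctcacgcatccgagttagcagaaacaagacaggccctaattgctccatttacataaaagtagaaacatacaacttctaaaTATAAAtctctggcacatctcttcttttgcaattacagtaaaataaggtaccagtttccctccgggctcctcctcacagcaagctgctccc
The core sequence that SMAD proteins bind, CAGAC, occurred once before Gdf15 and at 2 places before Tgfb2, and in none of the Inhba stretch. It was also present in 42.2% of 32851 mouse promoter stretches of the same length, so its presence does not set these genes apart. A TATA box, TATAAA, lay from -31 to -26 before the Tgfb2 start and from -91 to -86 before that of Inhba (12.4% of promoters hold one). The core of a cyclic AMP response element, TGACG, lay from -72 to -68 before Tgfb2 (17.8% of promoters). The AP-1 site TGANTCA (6.75% of promoters) and the ATF4 composite site TGATGNAA (3.45%) were not found in these 3 stretches. The marked motifs did not overlap one another. Promoters of 8 of the 10 ligands were matched by symbol, without Bmp2 and Tgfb3.

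The levels in the 4 groups came first. The tables hold group means of normalized counts, not values per library, so no spread within a group and no overlap between libraries can be given; the authors' p-values carry that spread. Each table was normalized by itself, and the means were brought to 1 scale through the groups that tables share. A group's level from its 2 tables then differed by at most 0.225% for any ligand. Of the 10 ligands, 7 had their highest level in Vehicle TAC and 3 (Inhbb, Bmp2 and Mstn) in NR TAC, where Bmp2 was at 122.1 against 122.0 in Vehicle TAC, a gap too small to order these 2 groups. The lowest level was in Vehicle SHAM for 5 and in NR SHAM for the other 5. In bulk heart tissue, fewer cells of a type and less RNA per cell cannot be told apart, here or in any level that follows.

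**Figure D1:**
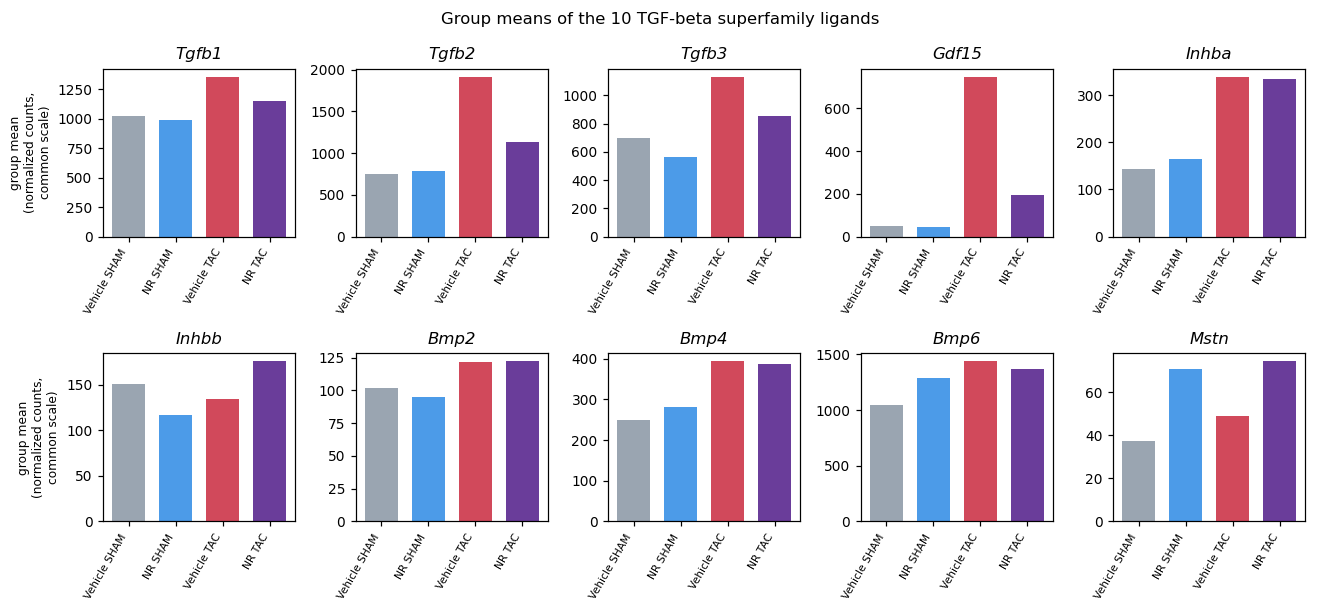
Bars give the authors' mean normalized count of each ligand in each of the 4 groups on a common scale (vertical axis from 0, scaled per gene; no spread within groups is given in the tables). Gdf15 stands at 748 in Vehicle TAC, 193 in NR TAC, and 51.1 and 43.7 in the SHAM groups with vehicle and NR, whereas Bmp2 lies between 95.4 and 122 in all 4.

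Per kilobase of annotated exon, Bmp6 was the most abundant of the ligands averaged over the groups (329 normalized counts per kilobase), followed by Tgfb3 (240.1) and Tgfb1 (225), and Mstn was the least abundant (21.4). These orders have no error and are descriptions. Gdf15 took different places in the groups. It was the eighth of the 10 in Vehicle SHAM (27.6 per kilobase) and the last in NR SHAM (23.6). It was the first in Vehicle TAC (404), above Bmp6 (368), Tgfb3 (335) and Tgfb2 (331), and the sixth in NR TAC (104).

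Over all genes, the authors' DESeq test called few changes, and none of the 10 ligands was among them in any comparison. At the authors' adjusted p below 0.05, 0.0487% of 20540 genes were called for TAC with vehicle and 0.549% of 20946 for TAC with NR. For NR against vehicle, 0% were called of 21420 genes in TAC hearts and 0% of 19917 in SHAM hearts. At an unadjusted p below 0.05, 3 of 10 ligands differed for TAC with vehicle, where 4.89% of genes did so and 2.77% did so with a higher mean. The 3 were all higher. After TAC with NR, 4 of 10 ligands differed, all higher, against 6.98% of genes in either direction and 3.52% with a higher mean. The median log2 fold change of the ligands was 0.56 after TAC with vehicle and 0.50 after TAC with NR, against medians of 0.01 and 0.02 over all genes of those tables. Ligand means were higher after TAC in 9 of 10 cases with vehicle (51.9% of all genes) and in 10 of 10 with NR (53.2%).

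**Figure D2:**
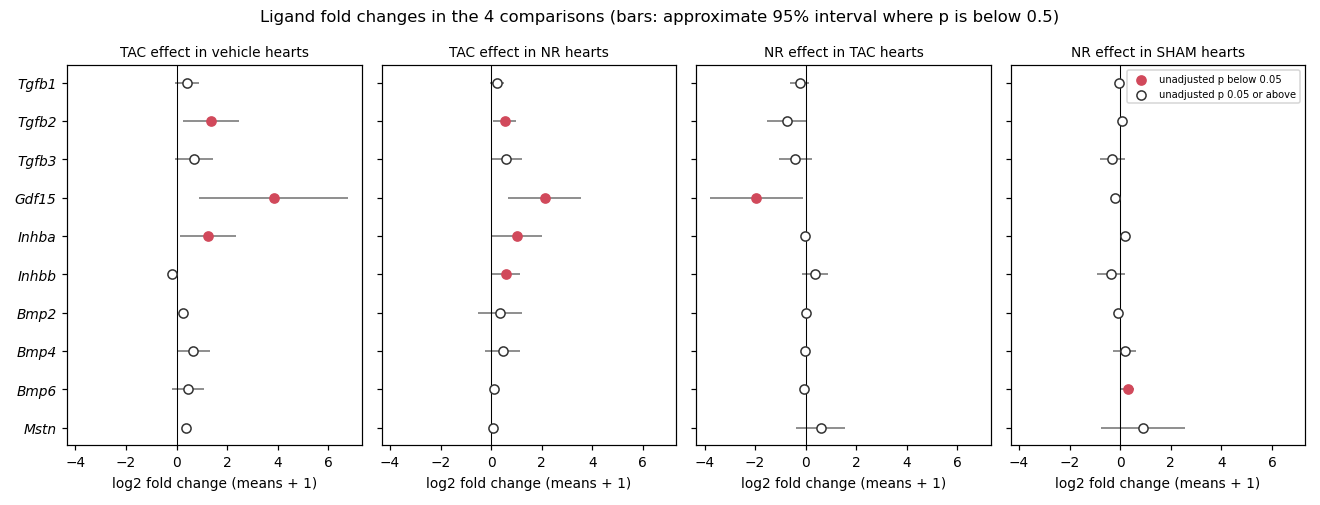
Points are the authors' log2 fold changes (group means plus 1) of the 10 ligands in the 4 comparisons; horizontal bars are approximate 95% intervals derived from the authors' p-values, left out where p is 0.5 or more. Filled points have an unadjusted p below 0.05; none passes after adjustment, and Gdf15 lies farthest from 0 in both TAC comparisons, at 3.84 and 2.12.

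Gdf15 had the largest fold difference of the 10 ligands after TAC, although it did not pass the adjusted test. With vehicle its authors' mean was 51.1 in SHAM and 748 in TAC hearts in the authors' deposited table, a 14.4-fold difference (log2 3.84, approximate 95% interval 0.90 to 6.79, unadjusted p 0.0104, DESeq adjusted p 0.795). With NR the authors' deposited table gave 41.7 in SHAM and 185 in TAC hearts, a 4.34-fold difference (log2 2.12, approximate SE 0.74, unadjusted p 0.00409, DESeq adjusted p 0.244). Both SHAM groups were low and both TAC groups higher, Vehicle TAC most. The vehicle p-value was bettered by 265 of 20540 genes and the NR p-value by 349 of 20946. Of the genes whose mean reached 10, 98.4% (vehicle) and 99.5% (NR) had a lower log2 fold change than Gdf15. Set directly against each other, the authors' deposited table had Gdf15 means of 761 in Vehicle TAC and 196 in NR TAC, 3.86-fold lower with NR (log2 −1.95, approximate SE 0.94, unadjusted p 0.0388, DESeq adjusted p 1). That comparison shares the Vehicle TAC libraries with the first. The gene spans chr8:70629393-70632456 on the minus strand of GRCm38, and no other annotated gene overlaps it.

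Liver transcripts were also high in Vehicle TAC, beside Gdf15. All 11 hepatocyte markers examined, among them Alb, Apob and Fgb, had higher means after TAC with vehicle (median log2 fold change 8.01). Yet 0 of the 11 had an unadjusted p below 0.05 in the authors' test of that pair (4.89% of all genes). With NR against vehicle in TAC hearts, 10 of the 11 were lower and 1 higher (median log2 fold change −8.43). In the authors' test of that pair, 6 of the 11 had an unadjusted p below 0.05, all lower (2.61% of all genes), and 0 were called. Group means cannot show which libraries carried these transcripts. Their summed level was 872 in Vehicle SHAM, 834 in NR SHAM, 43971 in Vehicle TAC and 2135 in NR TAC. Most of the NR TAC sum came from Ahsg (1008), Cyp2e1 (624) and Hamp (451), while Alb was at 10.5 there against 24946 in Vehicle TAC. After TAC with NR, 7 of the 11 were lower (median −1.72) and Fgb was at 0 in NR TAC, while Gdf15 was 4.34-fold higher there in the authors' deposited table. The part of the hepatocyte transcripts in the Gdf15 level of Vehicle TAC was not tested. Cardiomyocyte markers, which the tissue label calls for, were abundant in all groups, with 6 genes summing to between 1697610 and 1912160.

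**Figure D3:**
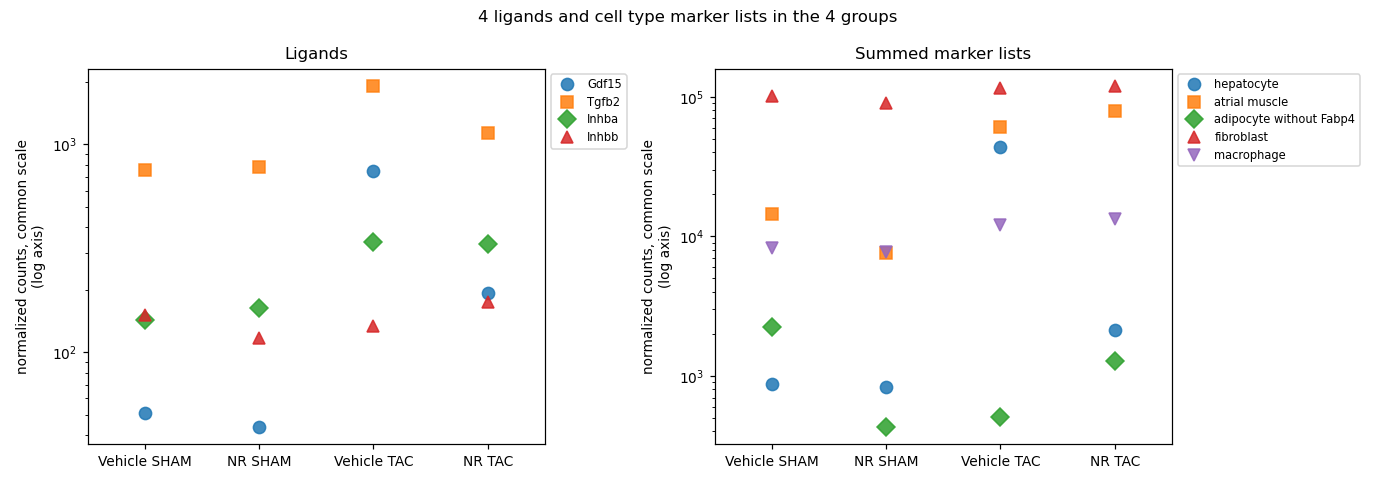
Left, levels of Gdf15, Tgfb2, Inhba and Inhbb in the 4 groups; right, summed levels of 5 cell type marker lists, both in normalized counts on a common scale with log axes. Hepatocyte markers reach 43971 in Vehicle TAC against 2135 in NR TAC, adipocyte markers without Fabp4 are higher in Vehicle SHAM and NR TAC, and macrophage markers are higher in both TAC groups.

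The 3 TGF-beta isoforms, which share receptors and are secreted in latent form, were all higher after TAC without passing the test. Tgfb2 went from an authors' mean of 753 in SHAM to 1916 in TAC hearts with vehicle, 2.54-fold apart in the authors' deposited table (log2 1.35, approximate SE 0.57, unadjusted p 0.0173, DESeq adjusted p 0.888). With NR its means were 745 and 1083 in the authors' deposited table, 1.45-fold apart (log2 0.54, approximate SE 0.23, unadjusted p 0.0198, DESeq adjusted p 0.515). On the common scale its SHAM levels were 752 (vehicle) and 781 (NR) and its TAC levels 1917 and 1135, Vehicle TAC being the highest. In the authors' deposited table of TAC hearts, NR went with a Tgfb2 log2 fold change of −0.76 (approximate SE 0.40, unadjusted p 0.058). Tgfb3 had log2 fold changes after TAC of 0.70 with vehicle (unadjusted p 0.0674) and 0.60 with NR (0.0554) in the authors' deposited tables. On the common scale its levels were 698 and 564 in Vehicle and NR SHAM and 1133 and 855 in Vehicle and NR TAC. Tgfb1, the isoform most studied in fibrosis, differed least: 0.40 (approximate SE 0.25, unadjusted p 0.0995) and 0.22 (approximate SE 0.14, 0.124) in the authors' deposited tables, from levels of 1025 and 991 in the SHAM groups to 1359 and 1154 in the TAC groups.

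Both activin subunit genes were measured, and neither passed the adjusted test. Inhba encodes the beta-A subunit, 2 copies of which form activin A. With vehicle its authors' means were 143 in SHAM and 340 in TAC hearts, 2.36-fold apart in the authors' deposited table (log2 1.24, approximate SE 0.57, unadjusted p 0.0285, DESeq adjusted p 0.970). With NR they were 157 and 318, 2.03-fold apart in the authors' deposited table (log2 1.02, approximate SE 0.50, unadjusted p 0.0422, DESeq adjusted p 0.679). Vehicle TAC and NR TAC were close for this gene: the authors' deposited table gave 345 and 339 (log2 −0.03, unadjusted p 0.981). Inhbb, the beta-B subunit, had vehicle means of 151 (SHAM) and 134 (TAC) in the authors' deposited table (log2 −0.17, unadjusted p 0.527). With NR its means were 111 and 168 in the authors' deposited table (log2 0.59, approximate SE 0.28, unadjusted p 0.0346, DESeq adjusted p 0.628). Its levels on the common scale therefore ran from 117 in NR SHAM through 134 in Vehicle TAC and 151 in Vehicle SHAM to 176 in NR TAC.

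Adipocyte transcripts differed between the groups beside Inhbb. The 7 adipocyte markers other than Fabp4, which is also an endothelial gene, summed to 2246 in Vehicle SHAM, 430 in NR SHAM, 504 in Vehicle TAC and 1270 in NR TAC. Fabp4 itself stayed between 10300.1 and 10792 in the 4 groups. Of the full list of 8, 7 had a higher mean after TAC with NR (median log2 fold change 1.18), and 6 of the 7 listed with vehicle had a lower one (median −1.86). In the authors' test, 1 of the 8 with NR and 0 of the 7 with vehicle had an unadjusted p below 0.05. Ucp1 was at 0 in NR SHAM and Vehicle TAC and at 153 in NR TAC. It was not listed in the comparisons that hold Vehicle SHAM, and entered the sum of that group as 0. The part of the adipocyte transcripts in the Inhbb values was not tested.

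Of the BMP ligands and myostatin, none had an unadjusted p below 0.05 after TAC. Bmp4, which with the closely related Bmp2 acts through BMP type I receptors, had authors' means of 249 and 393 in Vehicle SHAM and TAC (log2 0.65, approximate SE 0.34, unadjusted p 0.0511) and of 269 and 371 in NR SHAM and TAC (log2 0.46, approximate SE 0.35, unadjusted p 0.192) in the authors' deposited tables. Bmp2 had log2 fold changes of 0.25 (unadjusted p 0.547) and 0.36 (0.43) in the same pairs of the authors' deposited tables. Bmp6, known for raising the iron hormone hepcidin in liver, had levels of 1043 in Vehicle SHAM, 1284 in NR SHAM, 1436 in Vehicle TAC and 1369 in NR TAC. Its Vehicle SHAM level was thus the lowest of the 4, and after TAC its log2 fold changes were 0.46 with vehicle (unadjusted p 0.158) and 0.09 with NR (0.525) in the authors' deposited tables. Mstn, which encodes myostatin, an inhibitor of muscle growth, had levels of 37.4 in Vehicle SHAM, 49.0 in Vehicle TAC, 70.6 in NR SHAM and 74.2 in NR TAC. Its log2 fold changes were 0.38 (unadjusted p 0.639) after TAC with vehicle and 0.07 (0.796) with NR in the authors' deposited tables.

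With NR against vehicle, ligand means lay in both directions and none passed the adjusted test. In TAC hearts 2 of 10 had a higher mean with NR (49.7% of all genes) and 8 a lower one, with a median log2 fold change of −0.05 against 0.00 over all genes. At an unadjusted p below 0.05 only Gdf15 differed (1 of 10; 2.61% of all genes). In SHAM hearts 5 of 10 were higher with NR (50.2% of all genes). Bmp6 alone had an unadjusted p below 0.05 there (1 of 10; 1.88% of all genes), with authors' means of 961 and 1184 in the authors' deposited table (log2 0.30, approximate SE 0.13, unadjusted p 0.0215, DESeq adjusted p 1). Mstn had the largest log2 fold change with NR in SHAM hearts, 0.90, with an approximate SE of 0.85 in the authors' deposited table (unadjusted p 0.293).

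Whether the TAC effect differed between NR and vehicle hearts was tested directly, through the 2 TAC tables, which share no library. The approximate z test covered 18774 genes. After Benjamini-Hochberg adjustment 0% passed, and 0.842% had an unadjusted p below 0.05. That is less than the share of 0.05 that a calibrated test gives when no gene differs. The test was therefore conservative, its errors may be too large, and the lack of calls says little about equal effects. None of the 10 ligands passed or had an unadjusted p below 0.05. The log2 TAC effect was smaller with NR for 8 of 10, a count without a share over all genes to set beside it, so no damping by NR is read from it. For Gdf15 the NR effect minus the vehicle effect was −1.73, with an approximate 95% interval from −5.00 to 1.55 (p 0.302). For Tgfb2 it was −0.81, from −2.01 to 0.39 (p 0.187). For Inhbb it was 0.75, from −0.00025 to 1.51 (p 0.0501, adjusted p 0.99993). The vehicle error behind the Inhbb interval came from an unadjusted DESeq p of 0.527, above the limit of 0.5 for printing errors, so it is less reliable. These intervals are wide, so an equal effect and a difference of several fold both remain within them for Gdf15.

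The pathway around the ligands was read from lists of its other genes, counted in each TAC table. Type I receptors (7 listed) had median log2 fold changes of −0.08 with vehicle and 0.22 with NR, and type II receptors (5 listed) of 0.05 and 0.10, with 0 called among them. Tgfbr1, the type I receptor for TGF-beta, had the smallest p of its list, with authors' means of 1119 and 1471 in Vehicle SHAM and TAC (log2 0.39, unadjusted p 0.0381) in the authors' deposited table; with NR its log2 fold change was 0.33 (unadjusted p 0.122) in the authors' deposited table. Acvr1c, a nodal and activin receptor of low count here, had −1.03 (unadjusted p 0.243) and 1.56 (0.165) in the authors' deposited tables. Acvr2b, which binds activins and myostatin, had −0.65 (unadjusted p 0.0917) and −0.16 (0.527) in the authors' deposited tables. Acvr2a, its close relative, had −0.26 (unadjusted p 0.134) and −0.13 (0.349), and Tgfbr2, the type II receptor for TGF-beta, 0.09 (0.621) and 0.18 (0.256), in the authors' deposited tables. Of 7 coreceptor genes listed, none was called. Hfe2, a BMP coreceptor of striated muscle, had log2 fold changes of −0.36 with vehicle (unadjusted p 0.0538) and −0.36 with NR (0.00688) in the authors' deposited tables. Rgma, of the same family, had −0.50 (unadjusted p 0.0882) and −0.37 (0.0723) in the authors' deposited tables. Bambi, a pseudoreceptor that dampens signalling, had log2 fold changes of 0.23 and 0.43 (unadjusted p 0.226 and 0.00921) in the authors' deposited tables. Gfral, the receptor for Gdf15, was listed in none of the 4 tables.

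The list for latency and activation of TGF-beta (13 genes) had medians of 0.33 with vehicle and 0.26 with NR, with 0 called. Genes stand in it by protein family or known role, which does not show that each one, Ltbp2 included, holds latent TGF-beta. Ltbp2, a latent TGF-beta binding protein family member found in elastic matrix, had means of 155 and 1584 with vehicle (log2 3.35, unadjusted p 0.0148, DESeq adjusted p 0.863) and of 147 and 710 with NR (log2 2.26, unadjusted p 0.0116, DESeq adjusted p 0.407) in the authors' deposited tables. Ltbp4, of the same protein family, had log2 fold changes of 0.46 (unadjusted p 0.0253) and 0.33 (0.0583) in the authors' deposited tables. Thbs1, the thrombospondin that can activate latent TGF-beta, had log2 fold changes of 1.90 (unadjusted p 0.0779) and 1.23 (0.00178) in the authors' deposited tables. Of the secreted inhibitors, 16 were listed with vehicle and 15 with NR, with medians of 0.09 and 0.58 and 0 called. Fstl3, which binds activins and myostatin, had 1.03 (unadjusted p 0.0267) and 0.73 (0.0652), and Nbl1, a BMP antagonist, 1.02 (0.0298) and 0.74 (0.0207), in the authors' deposited tables.

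Inside the cell, the 8 SMAD genes had medians of −0.06 and 0.10 with 0 called, and the 7 SMAD regulators 0.15 and 0.25 with 0 called. Smad7, the inhibitory SMAD that the pathway itself induces, had log2 fold changes of 0.51 (unadjusted p 0.0079) with vehicle and 0.43 (0.182) with NR, and Smad3 had −0.35 (0.108) and −0.35 (0.243), in the authors' deposited tables. Pmepa1, a TGF-beta-induced brake on SMAD signalling, had 0.80 (unadjusted p 0.0247) and 0.55 (unadjusted p 0.000692, DESeq adjusted p 0.0887) in the authors' deposited tables. Skil, a repressor of SMAD-driven transcription, had 0.50 (unadjusted p 0.0722) and 0.49 (0.00588) in the authors' deposited tables.

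**Figure D4:**
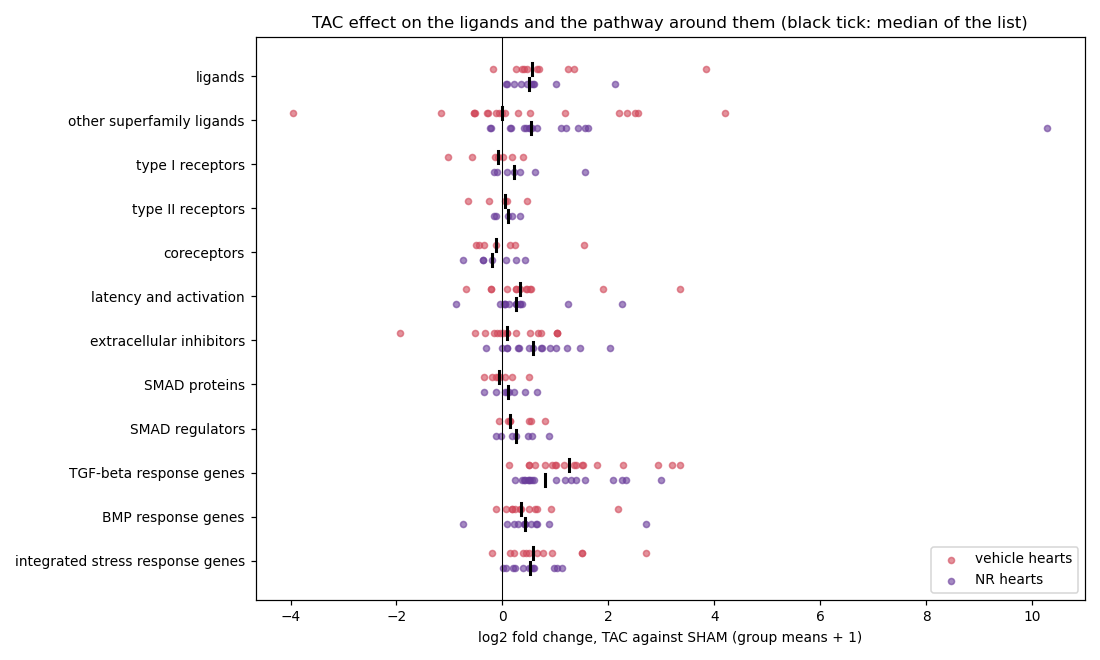
Each point is a gene, placed by its log2 fold change for TAC against SHAM in the authors' tables (horizontal axis), in vehicle (red) and NR (purple) hearts; black ticks are list medians. The TGF-beta response genes have the highest medians, 1.26 with vehicle and 0.80 with NR, and the receptors and SMAD genes lie around 0.

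Genes known to respond to TGF-beta had the highest medians of the pathway lists. All 18 listed had higher means after TAC with vehicle and with NR, with medians of 1.26 and 0.80, and 8 and 9 of them had an unadjusted p below 0.05. Over all genes, 51.9% and 53.2% had higher means, and 2.77% and 3.52% were higher at an unadjusted p below 0.05. The list was chosen with earlier results of these data known, so its counts are descriptions and no test of a TGF-beta response. Pmepa1, Skil, Smad7 and Ltbp2 also stand in the lists described above. Ctgf, which encodes a matricellular growth factor, rose with NR from an authors' mean of 3343 to 9880 (log2 1.56, DESeq adjusted p 0.0226) and was the 1 call of the list; with vehicle it had 1.35 (DESeq adjusted p 0.932), both in the authors' deposited tables. Tagln, a smooth muscle and myofibroblast gene, had 0.99 (unadjusted p 0.00386) and 0.41 (0.593) in the authors' deposited tables. With NR against vehicle in TAC hearts, 15 of the 18 were lower (median −0.40) and 3 higher, where 49.7% of all genes were higher. In that comparison 0 of the 18 were called and 0 had an unadjusted p below 0.05. Fibroblast markers, 2 of which are also in this list, had medians of 0.06 with vehicle and 0.37 with NR, and their summed level was 101679 and 90097 in Vehicle and NR SHAM and 115607 and 120217 in Vehicle and NR TAC. Macrophage markers summed to 8295 and 7720 in Vehicle and NR SHAM and to 12091 and 13212 in Vehicle and NR TAC, with 8 of 8 higher after TAC in both tables. The higher sum in NR TAC than in Vehicle TAC came from Lyz2 (7053 against 5806) and Adgre1 (1027 against 442). With NR against vehicle in TAC hearts, 6 of the 8 were lower and 2 higher (median −0.17). The part of these cell types in the ligand values was not tested.

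The BMP response genes (12 listed) had medians of 0.34 and 0.43, 11 of 12 higher in each table (51.9% and 53.2% of all genes) and 0 called. Id1, a direct BMP target, had log2 fold changes of 0.18 (unadjusted p 0.312) and 0.41 (0.00695), and Atoh8 0.91 (0.0187) and 0.54 (0.0917), in the authors' deposited tables. The integrated stress response, the programme best known for inducing Gdf15, had medians of 0.58 with vehicle and 0.52 with NR over 12 genes. Of these, Ppp1r15a, which restores translation after stress, rose with NR from 956 to 1453 (log2 0.60, DESeq adjusted p 0.0221), and had 0.66 (DESeq adjusted p 0.886) with vehicle, in the authors' deposited tables. Atf4, its central transcription factor, had 0.45 (unadjusted p 0.014) and 0.39 (0.00835) in the authors' deposited tables. Ddit3, another factor of that response, had 0.49 (unadjusted p 0.0134) after TAC with vehicle and 0.01 (0.996) with NR, and −0.40 (0.0344) for NR in TAC hearts, in the authors' deposited tables. For NR in TAC hearts, 8 of the 12 genes were lower and 4 higher (median −0.17), with 49.7% of all genes higher. Ddit3 was the only 1 of the 12 with an unadjusted p below 0.05 there (2.61% of all genes), and 0 were called. Atf3, a stress-induced transcription factor, had vehicle means of 347 (SHAM) and 982 (TAC; unadjusted p 0.00396) and a log2 fold change of 0.97 (0.213) with NR in the authors' deposited tables.

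Annotation limits 4 of the ligand counts. On GRCm38, exons of genes on the opposite strand share 224 bases with Bmp6 (Txndc5), 89 with Bmp4 (Gm15217), 124 with Tgfb2 (Gm29491) and 163 and 257 with Tgfb3 (Gm37804 and Gm48008). Whether counting used strand is not given in the sources used here, and without strand such reads cannot be told apart.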

How the data were processed

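The labels' protocols name a BGISEQ-500 for the 16 mouse heart libraries. TopHat, HTSeq and DESeq, and GRCm38, are named in the submitters' processing notes, without versions or roles. The deposited signal columns are group means of counts over size factors, scaled separately in each table, per the file headers and values. The deposited fold is the ratio of means plus 1, the deposited log2 value its logarithm, and the deposited p-value the authors' DESeq test of the pair; folds and adjusted p-values were recomputed over all genes and matched to rounding. Means have no SD, and depth per library is not given, so no counting interval is printed. Samples were grouped by title.

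Ligands and lists were chosen with earlier results of these data known. Genes were called at the authors' adjusted p below 0.05. Approximate errors divide a log2 fold change by the two-sided normal quantile belonging to its p-value, and are given only below a p of 0.5, a limit chosen after seeing the data, as was leaving Fabp4 out of a marker sum. The z test of the difference divides the difference of 2 log2 fold changes by their joined error over 18774 genes. For this test errors were formed at any p-value, without the limit of 0.5, and 998 of 19772 genes gave none. The z test was run on simulated data whose p-values came from a normal test, so that run could not show whether the normal quantile suits the authors' p-values. In the real data 0.842% of genes had a z test p below 0.05, fewer than a calibrated test gives, so the approximate errors may be too large. Levels were joined through median ratios of shared groups (genes with means of at least 10), exon lengths and positions are from GENCODE M21, and promoters from RefSeq. Pathway genes named are those called in any table and, per list and TAC table, the 2 with the smallest p; those beyond it, Ddit3's NR effect included, were chosen after values were seen. The authors' own test was used because the tables hold no counts per library. Python 3.11.15, pandas 2.3.3 and SciPy 1.17.1 were used. Alternatives changed the threshold, the genes adjusted over, the pseudocount, the centring and the tables joined.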

Additional observations from a re-analysis of the deposited data

How the results depend on the processing

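No ligand was called in any comparison or in the test of the difference under any alternative run: an adjusted p threshold of 0.01, adjustment over genes with a mean of at least 10 (for the difference, in both tables), or the difference taken through the 2 NR tables, which gave no error and so no test for Bmp4. A stricter threshold cannot add a call. The difference through the NR tables rests on the same 4 groups, so mainly its error could change. At the 0.01 threshold, calls over all genes fell from 10 to 3 with vehicle and from 115 to 37 with NR. Of 120 ligand fold changes recomputed with no pseudocount, with a pseudocount of 10 or centred on the median gene, 119 kept their sign. The same pseudocount on both means cannot change a sign, so only centring could do so. The Bmp2 NR effect in TAC hearts went from −0.00092 to 0.0018 on centring. Levels from the TAC tables alone put 7 ligands highest in Vehicle TAC and those from the NR tables alone 8, Bmp2 being at 122.09 there against 122.01 in NR TAC. Leaving out single libraries was not run, since the tables hold group means only. No paired analysis was possible because the tables hold group means and the titles give each library a number of its own. Approximate errors rest on a normal reading of the authors' p-values and are least reliable for low counts.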

Other observations

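Of the other superfamily ligands examined, 19 were listed for TAC with vehicle and 16 for TAC with NR, with 0 called and median log2 fold changes of −0.00 and 0.54. Bmp10, a BMP of atrial muscle, had levels of 1031 in Vehicle SHAM, 4.41 in NR SHAM, 66.0 in Vehicle TAC and 6812 in NR TAC. Its log2 fold change after TAC was −3.95 with vehicle (unadjusted p 0.189) and 10.29 with NR (unadjusted p 0.00306, DESeq adjusted p 0.214) in the authors' deposited tables. Of the other 5 atrial markers, Sln, Myl4, Myl7 and Dkk3 were likewise lowest in NR SHAM (286, 2277, 1335 and 633) and highest in NR TAC (4554, 23218, 10789 and 5074). The remaining one, Nppa, was also lowest in NR SHAM (3088) but highest in Vehicle TAC (49269), with 28611 in NR TAC. Bmp10 and these 5 are members of the same marker list, and their part in other values was not tested.

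Inhbe and Inhbc, activin subunits made mainly by hepatocytes, and Gdf2, the liver BMP known as BMP9, are given here because of their levels, after these were seen. Their Vehicle TAC levels were 17.4, 13.0 and 6.79 against 0, 1.37 and 0.70 in Vehicle SHAM, and Inhbe and Inhbc were at 0 in NR TAC, beside hepatocyte markers that summed to 43971 and 2135 in those groups. None passed the authors' test. Gdf6 had levels of 47.3 in Vehicle SHAM, 46.1 in NR SHAM, 108 in Vehicle TAC and 63.3 in NR TAC. The order of the TAC groups was the same as for the 7 of 10 ligands highest in Vehicle TAC, Gdf15 and Tgfb2 among them. For TAC with vehicle the unadjusted p of Gdf6 was 0.065 in the authors' deposited table. The part of hepatocyte transcripts in the Gdf6 levels was not tested.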
